A study of Mus musculus with 11 samples.

Results

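The 10 genes described here belong to the Hippo pathway and its YAP/TEAD output: the coactivators *Yap1* and *Wwtr1*, the DNA-binding partners *Tead1*, *Tead2* and *Tead4*, the kinases *Lats1* and *Lats2*, the angiomotins *Amot* and *Amotl2*, and *Nf2*. They were listed by name, with earlier results of these data known, and found by matching the Ensembl gene identifier of each row to these symbols. All 10 were found among the 54146 genes of each table. Their levels and their differences between mutant and control embryos were examined within and between the batches of the experiment.

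Single-embryo RNA-seq by the Smart-seq2 protocol was carried out on 11 C57BL/6 mouse embryos at the 8-cell stage (E2.5), each library holding 1 embryo. The 5 mutants were Prdm10Δ/Δ, lacking exon 5 of *Prdm10* on both alleles, and the 6 controls were Prdm10+/+ or Prdm10Δ/+, which the labels do not separate. *Prdm10* encodes a zinc finger transcription factor, the Δ allele had been made earlier by breeding to an ACTB-Cre line, and all embryos came from intercrosses of heterozygotes, so that mutants had heterozygous mothers. Batch 1 was pre-amplified with 16 PCR cycles (controls 4, 5 and 6, mutants 4 and 5) and batch 2 with 13 (controls 1, 2 and 3, mutants 1, 2 and 3). Genotypes had been called from the cDNA of each embryo, by qRT-PCR for exon 5, and the labels do not say which embryos were littermates.

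In the Hippo pathway, the kinases MST1 and MST2 with their partner SAV1 activate LATS1 and LATS2, which phosphorylate YAP and TAZ (the product of *Wwtr1*) and keep them out of the nucleus. When YAP or TAZ is not phosphorylated, it enters the nucleus and binds TEAD proteins to activate transcription. In the preimplantation embryo, angiomotins and NF2 (Merlin) promote LATS activity in inner cells, while in outer cells nuclear YAP acts with TEAD4 to turn on trophectoderm genes such as *Cdx2*. At the 8-cell stage the embryo is at or before the point at which inner and outer cells arise.

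Summed expected counts ranged from 3534735 (control 2) to 8265840 (mutant 2) per library. *Prdm10* stood at 11.1 to 24.8 TPM (abundance scaled for transcript length and library size) in the 6 controls and at 4.88 to 8.16 in the 5 mutants, without overlap, although its count did not pass the test over all genes (log2 fold change -0.66 ± 0.26 (SE), DESeq2 adjusted p = 0.215). The transcript length used for that scaling was greater in mutants by a log2 of 0.65 (limma adjusted p = 0.136), which lowers TPM beyond the count. The groups had been set by qRT-PCR for *Prdm10* on the same cDNA, so the separation is not an independent check. The early embryo genes *Pou5f1*, *Sall4*, *Tfap2c*, *Dppa3* and *Nanog* were present, with a summed level of 4768 to 6234 TPM per embryo. Most of that sum was *Dppa3* (4240 to 5987 TPM), while *Pou5f1* ranged from 34.2 to 486 and *Nanog* from 6.1 to 52.1. The oocyte genes *Gdf9*, *Bmp15*, *Zp3*, *Oosp1* and *Mos* summed to 31.1 to 105 TPM in controls and 40.7 to 72.8 in mutants. Of 8 cumulus and granulosa cell genes, 3 (*Has2*, *Ptx3* and *Foxl2*) were at 0 in every library and the sum reached at most 1.48 TPM in controls and 10.3 in mutants, while 3 oviduct genes summed to 0 to 0.810 TPM in batch 1 and 1.59 to 31.9 in batch 2. The blood genes *Hba-a1*, *Hba-a2*, *Hbb-bs*, *Hbb-bt* (at 0 in every library) and *Ptprc* summed to 1.48 to 33.4 TPM in controls and 1.12 to 9.62 in mutants, with the highest value in batch 2; the part of these cell types in the results was not tested. Control 2, the smallest library, was the only embryo with both *Xist* (81.8 TPM) and the sum of 4 Y-linked genes (18.2 TPM) above 10 TPM. Of the other 10, 6 had *Xist* above 10 TPM with a Y-linked sum under 1 TPM, and 4 had the reverse. The mutant against control values of the 10 genes are therefore also given without control 2. As these are bulk measures of whole embryos, fewer cells expressing a gene and less of its RNA per cell cannot be told apart.

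*Tead4*, the TEAD factor required for trophectoderm formation, was the most abundant of the 10 genes, at 90.3 ± 38.4 TPM (SD, n = 11). It was followed by *Nf2* at 33.8 ± 16.7, *Wwtr1* at 21.1 ± 7.30, *Yap1* at 16.7 ± 4.87, *Lats2* at 9.26 ± 4.33, *Amotl2* at 7.71 ± 5.91, *Lats1* at 5.16 ± 2.67, *Tead1* at 2.92 ± 1.79, *Amot* at 2.57 ± 1.62 and *Tead2* at 1.88 ± 2.40 TPM, a scale that is already corrected for transcript length. *Tead4* exceeded *Nf2* in 11 of 11 embryos. Every other pair of neighbours in this order overlapped: *Nf2* lay above *Wwtr1* in 8 of 11 embryos, *Wwtr1* above *Yap1* in 8, *Yap1* above *Lats2* in 9, *Lats2* above *Amotl2* in 7, and *Amotl2* above *Lats1* in 6. At the low end, *Lats1* exceeded *Tead1* in 8 embryos, *Tead1* exceeded *Amot* in 7, and *Amot* exceeded *Tead2* in 8. The 4 most abundant genes kept this order of means in both batches, whereas the order below *Yap1* depended on the batch. In batch 1 *Amotl2* (11.5 TPM) lay above *Lats2* (11 TPM) and *Tead1* (1.55) was the lowest. The batch 1 level of *Tead2* (2.49 TPM) rested on 2 to 18 expected counts per embryo, so its place there is uncertain. In mutant 4, for example, 3 counts on a length of 326 bases gave 2.23 TPM. In batch 2 *Lats1* (6.98) lay above *Amotl2* (4.54) and *Tead2* (1.37) was the lowest.

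**Figure D1:**
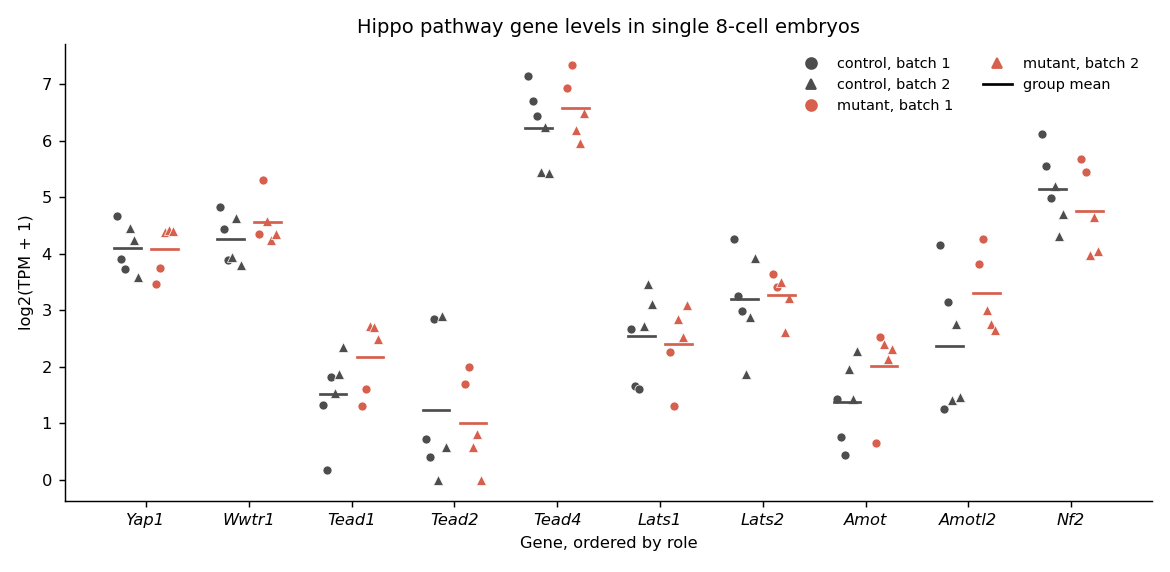
Level of each of the 10 genes in every embryo, as log2(TPM + 1), with circles for batch 1, triangles for batch 2, grey for the 6 controls, red for the 5 mutants and a line at each group mean. *Tead4* lies above the other genes, and the mutant and control points of every gene overlap.

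Within families the balance of paralogs was uneven. *Tead4* supplied 94.0% ± 3.76 (SD, n = 11) of the summed TPM of *Tead1* to *Tead4*, with a range over embryos of 88.8% to 99.4%, whereas *Tead1* supplied 3.88%, *Tead2* 1.95% and *Tead3*, which is not among the 10 genes, 0.173%. Control embryos had a *Tead4* share of 93.8% ± 4.65 (SD, n = 6) and mutant embryos one of 94.3% ± 2.87 (SD, n = 5), a difference well within the spread between embryos. *Wwtr1* and *Yap1* were close to balance, *Wwtr1* holding 55.2% ± 9.39 of their sum and exceeding *Yap1* in 8 of 11 embryos. *Lats2* held 63.5% ± 17.8 of the *Lats1* and *Lats2* sum, and *Amotl2* held 63.7% ± 23.3 of the angiomotins, against 28.2% for *Amot* and 8.05% for *Amotl1*.

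All of these balances differed in their means more between batches than between groups. The *Tead4* share was 96.5% in batch 1 and 91.9% in batch 2. That of *Wwtr1* was 61.4% and 50.1%, against 52.9% in controls and 58.1% in mutants. *Lats2* made up 75.1% to 86.6% of the *Lats* sum in batch 1 and 32.2% to 65.2% in batch 2, so the batches did not overlap. *Amotl2* made up 44.0% to 95.4% of the angiomotin sum in batch 1 and 29.8% to 69.5% in batch 2. In batch 1 the *Wwtr1* share was 65.7% and 75.4% in the mutants against 53.1%, 53.2% and 59.6% in the controls, but in batch 2 it was 46.5% to 53.6% in mutants and 40.6% to 57.0% in controls. These shares are a description and were not tested.

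**Figure D2:**
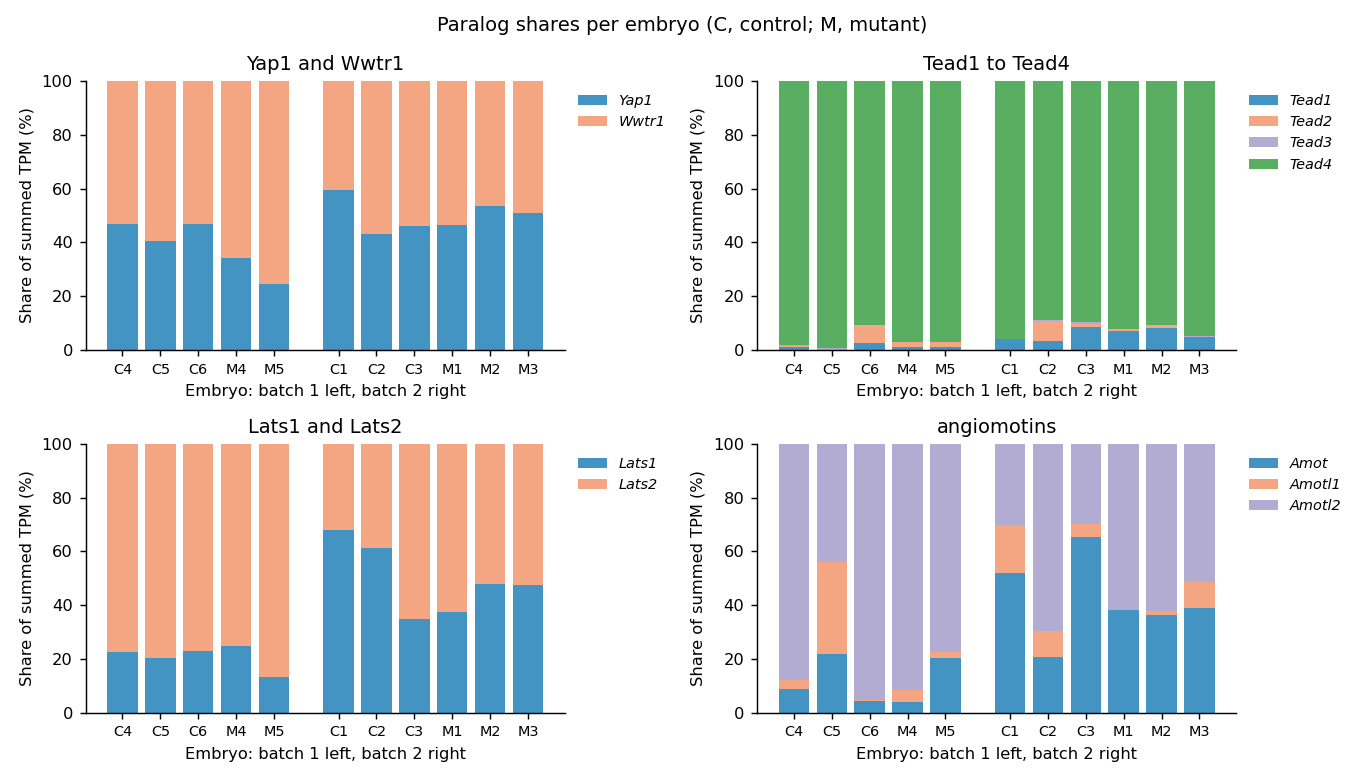
Share of each paralog in the summed TPM of its family, in percent, for every embryo (C, control; M, mutant), batch 1 on the left and batch 2 on the right of each panel. *Tead4* fills 88.8% to 99.4% of the TEAD bars, and *Lats2* takes 75.1% or more of each batch 1 bar but at most 65.2% of a batch 2 bar.

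TEAD proteins recognise GGAATG, read as CATTCC on the opposite strand, and several Hippo genes are known as targets of YAP/TEAD. RefSeq promoters (250 bases before to 50 after each annotated start, GRCm38.p6) were present for 8 of the 10 genes (no entry for *Tead1* and *Tead4*), some with more than 1 start, which gave 11 promoters. This hexamer was found on either strand in 5 of the 11, compared with 14.7% of all 32851 promoters of that length. The 5 belong to 4 genes, since the promoters of both *Wwtr1* starts hold the same site, and a further *Lats2* promoter has none. The matches are shown here in capitals within 30 bases, 5′ to 3′ on the strand of the gene, because these are the genes whose levels follow.
Yap1: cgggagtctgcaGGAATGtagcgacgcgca
Wwtr1: ggtaaactcaaaGGAATGcagataggcgct
Lats2: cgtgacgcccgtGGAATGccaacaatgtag
Amotl2: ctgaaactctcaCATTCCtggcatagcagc
The windows lie at chr9:8004720-8004749 (minus strand) for *Yap1*, chr3:57576029-57576058 (minus strand) for *Wwtr1*, chr14:57746102-57746131 (minus strand) for *Lats2* and chr9:102717727-102717756 (plus strand) for *Amotl2*. The match begins at position -141 from the annotated start in *Yap1*, at -136 or -170 from the 2 starts of *Wwtr1*, at -65 in *Amotl2*, and at 5, just inside the transcript, in *Lats2*. These letters were not found in the windows of *Tead2*, *Lats1*, *Nf2* and *Amot*. A match is a description of the sequence and not evidence of binding.

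Expression in mutants was then compared with controls by the DESeq2 Wald test over all genes, with batch as a term. A gene was called changed at an adjusted p under 0.05 and a mean normalised count above 10, and 1.45% of genes (151 of 10448) were called. Of the 10 Hippo genes 9 were tested, *Tead2* falling under the count threshold, and 0 of the 9 were called, against 0.565% of all genes called higher and 0.881% called lower in mutants. At an unadjusted p under 0.05 there were 2 of the 9, *Amotl2* and *Tead4*, both with positive values, while 11.9% of all tested genes (1248) were under that p. The edgeR quasi-likelihood test also called 0, with 2 at an unadjusted p under 0.05 against 9.49% of all genes, as did limma on log2(TPM + 1), with 1 against 9.50%. The median log2 fold change of the 9 was 0.14, and that of all tested genes was 0.00 (-0.00124), with 6 of the 9 above 0. Without control 2, 0 members were called as well. The values of *Amotl2* (1.60, adjusted p = 0.0696), *Tead4* (0.52, adjusted p = 0.119), *Wwtr1* (0.52, adjusted p = 0.261), *Nf2* (-0.28) and *Yap1* (-0.12) were then larger in size. Those of *Amot* (0.61), *Lats1* (-0.19) and *Tead1* (0.13) were smaller, and *Lats2* (-0.0027) and *Tead2* (0.14) changed sign.

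No member had all mutants above, or all below, the controls of their own batch in both batches on the TPM scale, whereas 0.995% of tested genes had all mutants higher and 1.46% all lower. An exact permutation test of the batch-centred log2(TPM + 1), two-sided over all 200 arrangements of the groups within batches, gave its smallest p, 0.065, for *Amotl2* and its next, 0.075, for *Tead4*; the smallest p this design allows is 0.005.

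**Figure D3:**
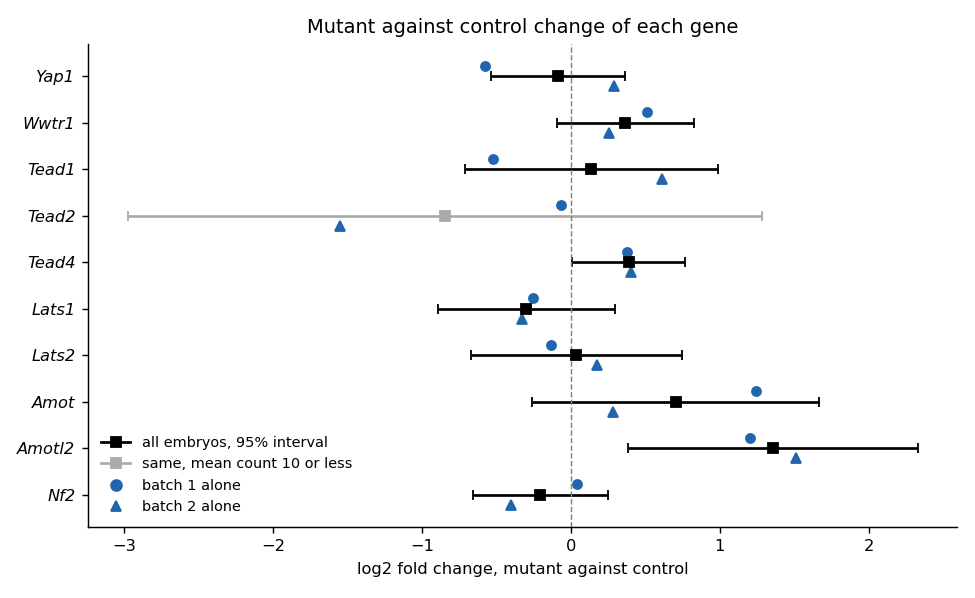
Log2 fold change of each gene in mutants against controls with its 95% interval (squares, all 11 embryos), and the same estimate from batch 1 alone (circles) and batch 2 alone (triangles); grey marks *Tead2*, which had a mean normalised count below 10. *Amotl2* (1.36) and *Tead4* (0.39) have intervals that do not reach 0 before adjustment over all genes, and *Yap1*, *Tead1*, *Lats2* and *Nf2* lie on opposite sides of 0 in the 2 batches.

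*Yap1* (ENSMUSG00000053110.13, chromosome 9, 7931999 to 8004596, minus strand, GRCm38) encodes the coactivator that LATS kinases restrain. In batch 1 it stood at 24.4, 14.0 and 12.2 TPM in controls and at 10.1 and 12.5 in mutants. In batch 2 it stood at 21.1, 18.1 and 11.1 TPM in controls and at 19.9, 20.5 and 20.3 in mutants. The mutants of batch 1 thus lay at the low end of their controls while the 3 mutants of batch 2 agreed closely and lay between the controls. The log2 fold change was -0.09 ± 0.23 (SE; 95% interval -0.54 to 0.36), with a DESeq2 adjusted p of 0.944. Estimated within batches it was -0.58 ± 0.33 in batch 1 and 0.29 ± 0.31 in batch 2; the test of that difference gave 0.87 ± 0.42 with an adjusted p of 1.00, over a background of 0.0382% of genes (4 of 10472) called for the interaction. No member was called for it. *Yap1* was the 1 member at an unadjusted p under 0.05, which 4.30% of all genes reached, and edgeR also called 0.

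*Wwtr1* (chromosome 3, 57455649 to 57575910, minus strand) encodes TAZ, the paralog of YAP. It stood at 27.6, 20.7 and 13.9 TPM in batch 1 controls and at 19.4 and 38.4 in batch 1 mutants. In batch 2 it stood at 14.4, 24.0 and 12.9 in controls and at 23.0, 17.9 and 19.5 in mutants. The groups overlapped in both batches, and the highest value, in mutant 5, stood far from the other 4 mutants. The log2 fold change was 0.37 ± 0.23 (SE; interval -0.10 to 0.83) with an adjusted p of 0.577, and 0.14 without mutant 5.

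*Tead4* (chromosome 6, 128224288 to 128300823, minus strand) was covered by 531 to 1750 expected counts per embryo, the deepest of the 10 genes. In batch 1 it stood at 139.8, 103 and 86.0 TPM in controls and at 122 and 161 in mutants, and in batch 2 at 42.4, 74.5 and 42.2 in controls and 72.2, 60.9 and 89.0 in mutants. Within each batch the highest embryo was a mutant and the lowest a control, with overlap between. The log2 fold change was 0.39 ± 0.19 (SE; interval 0.01 to 0.77), a 1.31-fold difference, with an unadjusted p of 0.0449 and a DESeq2 adjusted p of 0.421. The estimates of the batches were 0.37 in batch 1 and 0.41 in batch 2.

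*Tead1* (chromosome 7, 112679318 to 112906807, plus strand), a paralog of *Tead4*, was scarce and uneven. Batch 1 controls had 1.52, 0.130 and 2.55 TPM and mutants 1.49 and 2.05, and batch 2 controls had 1.89, 2.66 and 4.09 and mutants 5.63, 5.50 and 4.65. All 3 mutants of batch 2 thus lay above all 6 controls, and the 2 of batch 1 lay among the controls. On counts the log2 fold change was 0.14 ± 0.43 (SE; interval -0.71 to 0.98), with an adjusted p of 0.954. It became 0.64 ± 0.48 when the effective length of the gene in each library was used as an offset, and 0.56 ± 0.28 on log2(TPM + 1); neither passed the test over all genes, with adjusted p of 0.641 (DESeq2) and 0.560 (limma). *Tead1* is the member whose size depended most on whether length was taken into account.

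*Tead2* (chromosome 7, 45215753 to 45233644, plus strand), the TEAD gene known from early mouse embryos alongside *Tead4*, was at the limit of detection, with 0 to 18 expected counts. Its highest levels were 6.23 TPM in control 6 and 6.48 in control 2, and 2.98 in mutant 5 among mutants. Control 1 and mutant 3 had a count of 0, which allows up to 0.630 and 0.735 TPM (3 counts, counting error only). With a mean normalised count of 6.68 it was not tested for a call.

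*Lats1* (chromosome 10, 7681214 to 7716460, plus strand), which encodes a kinase that phosphorylates YAP and TAZ, ranged from 2.07 to 10.1 TPM in controls and from 1.49 to 7.55 in mutants, so the groups overlapped. Its log2 fold change was -0.30 ± 0.30 (SE; interval -0.89 to 0.29; adjusted p = 0.785). The second kinase gene, *Lats2* (chromosome 14, 57689662 to 57758388, minus strand), ranged from 2.67 to 18.3 TPM in controls and from 5.17 to 11.5 in mutants. Its log2 fold change was 0.04 ± 0.36 (SE; interval -0.67 to 0.75; adjusted p = 0.988). The groups of both kinase genes overlapped in each batch.

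*Amotl2* (ENSMUSG00000032531.15, chromosome 9, 102716672 to 102733418, plus strand) encodes angiomotin-like 2, which binds YAP at cell junctions and is itself known as a YAP/TEAD target. It had the largest fold change of the 9 tested members and the smallest p. In batch 1 it stood at 16.8, 1.39 and 7.91 TPM in controls and at 13.2 and 18.2 in mutants. In batch 2 it stood at 1.67, 5.74 and 1.75 in controls and at 6.99, 5.81 and 5.29 in mutants. In each batch a single control, number 4 in batch 1 and number 2 in batch 2, reached the mutant values, and the others lay below every mutant of their batch.

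The log2 fold change of *Amotl2* was 1.36 ± 0.50 (SE; interval 0.38 to 2.33), a 2.56-fold difference, with an unadjusted p of 0.00626 and a DESeq2 adjusted p of 0.171. It was 1.20 ± 1.32 in batch 1 and 1.51 ± 0.55 in batch 2. Without control 4 the value was 1.68 with an adjusted p of 0.0490, which passes the threshold, and without control 2 it was 1.60 with an adjusted p of 0.0696. Without mutant 5 the value was 1.37 and the unadjusted p 0.0162, but the adjusted p was 0.555. With all embryos and the effective length of the gene in each library as an offset, the value was smaller, 0.97 ± 0.45 (SE; DESeq2 adjusted p = 0.348). On log2(TPM + 1) it was 1.05 ± 0.45 (limma adjusted p = 0.487). Counts behind these values were low in some embryos, from 5 in control 5 to 218 in mutant 5. *Amotl2* was thus not called with all embryos, and it passed the threshold only in the fit without control 4.

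*Amot* (X chromosome, 145446425 to 145505181, minus strand) encodes angiomotin, which is needed to restrain YAP in inner cells of the embryo. It stood at 1.71, 0.690 and 0.360 TPM in batch 1 controls and at 0.570 and 4.79 in batch 1 mutants. In batch 2 it stood at 2.89, 1.70 and 3.84 in controls and at 4.32, 3.40 and 4.00 in mutants. Of the mutants, 3 of 5 lay above all 6 controls, and mutant 4 lay among the lowest. The log2 fold change was 0.70 ± 0.49 (SE; interval -0.26 to 1.66; adjusted p = 0.623), and it was -0.07 without mutant 5. With *Xist* and the Y-linked sum as further terms in DESeq2 the value was 0.66 ± 0.50 (adjusted p = 1.00).

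*Nf2* (chromosome 11, 4765845 to 4849536, minus strand) encodes Merlin, which recruits LATS to the membrane. It stood at 68.5, 46.0 and 30.7 TPM in batch 1 controls and 50.3 and 42.5 in mutants, and at 35.6, 18.8 and 25.2 in batch 2 controls and 14.8, 24.0 and 15.5 in mutants. The groups overlapped in both batches, with 2 of the 3 batch 2 mutants below all controls. The log2 fold change was -0.21 ± 0.23 (SE; interval -0.66 to 0.25; adjusted p = 0.819), made up of 0.04 ± 0.30 in batch 1 and -0.40 ± 0.33 in batch 2.

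The batches were compared in the same DESeq2 fit. Here 4 of the 9 tested members were higher in batch 2 (*Tead1*, *Lats1*, *Amot* and *Yap1*) and 1 (*Tead4*) was lower, against a background of 13.8% of all tested genes called higher and 14.0% called lower. edgeR called 5 members too, against 22.7% of all genes. Each batch had its own isolation, processing and number of PCR cycles, so these, and any difference in litter or exact age, cannot be told apart.

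*Tead1* rose by a log2 of 1.92 ± 0.43 (SE; DESeq2 adjusted p = 0.000165), from 1.55 ± 0.904 TPM (SD, n = 5) in batch 1 to 4.07 ± 1.52 (SD, n = 6) in batch 2. *Lats1* rose by 1.5 ± 0.30 (adjusted p = 1.88e-05), from 2.98 ± 1.59 to 6.98 ± 1.89 TPM. *Amot* rose by 1.5 ± 0.49 (adjusted p = 0.0146) and *Yap1* by 0.66 ± 0.23 (adjusted p = 0.0213). In the other direction, *Tead4* had a log2 fold change of -0.76 ± 0.19 (adjusted p = 0.000947), from 122 ± 29.7 to 63.5 ± 18.7 TPM. The value of *Amotl2* was -1.24 ± 0.50 with an adjusted p of 0.0517, and that of *Nf2* was -0.46 ± 0.23 with 0.141, and neither was called. The largest batch effects thus fell on a TEAD gene, a kinase and an angiomotin, and the batches' TPM values overlapped in each of them.

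Fitted in the 6 controls alone, 3 members were called between batches (*Tead4*, *Lats1* and *Amot*), and in the 5 mutants alone 5 were (*Yap1*, *Tead1*, *Tead4*, *Lats1* and *Amotl2*). The background was 14.3% of 10424 genes in controls and 14.2% of 7688 in mutants. *Tead4* and *Lats1* were called in both: *Tead4* gave -0.78 ± 0.28 in controls and -0.74 ± 0.27 in mutants, and *Lats1* gave 1.53 ± 0.41 and 1.46 ± 0.45. For *Yap1* the controls gave 0.29 ± 0.33 and the mutants 1.16 ± 0.29, a contrast whose interaction test is given above. When embryos were left out in turn, *Tead1*, *Tead4* and *Lats1* were called in every fit, while *Yap1* lost its call without mutant 2 (adjusted p = 0.0533), mutant 4 (0.117) or mutant 5 (0.0988) and *Amot* without control 3 (0.0594). *Amotl2* gained a call without control 2 (-1.49, adjusted p = 0.0252) or control 5 (-1.51, adjusted p = 0.000232), and *Nf2* without control 6 (-0.58, adjusted p = 0.0426).

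Batch differences over all tested genes went with gene length. Among genes with a mean effective length over 4000 bases, 31.5% of 1378 were called higher and 4.57% lower in batch 2, compared with 11.3% and 18.9% of 3971 genes of 2000 to 4000 bases, and 11% and 12.8% of 5099 shorter genes. *Lats1* (7135 bases), *Tead1* (6256) and *Amot* (5918), all higher in batch 2, are in the long class, and so is *Wwtr1* (4617), which was not called (-0.16 ± 0.24). *Tead4* (2498), *Amotl2* (2813), *Nf2* (3178), *Lats2* (3198) and *Yap1* (3986) are in the middle class, and their directions were mixed. The part of length in the differences of these genes was not tested.

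**Figure D4:**
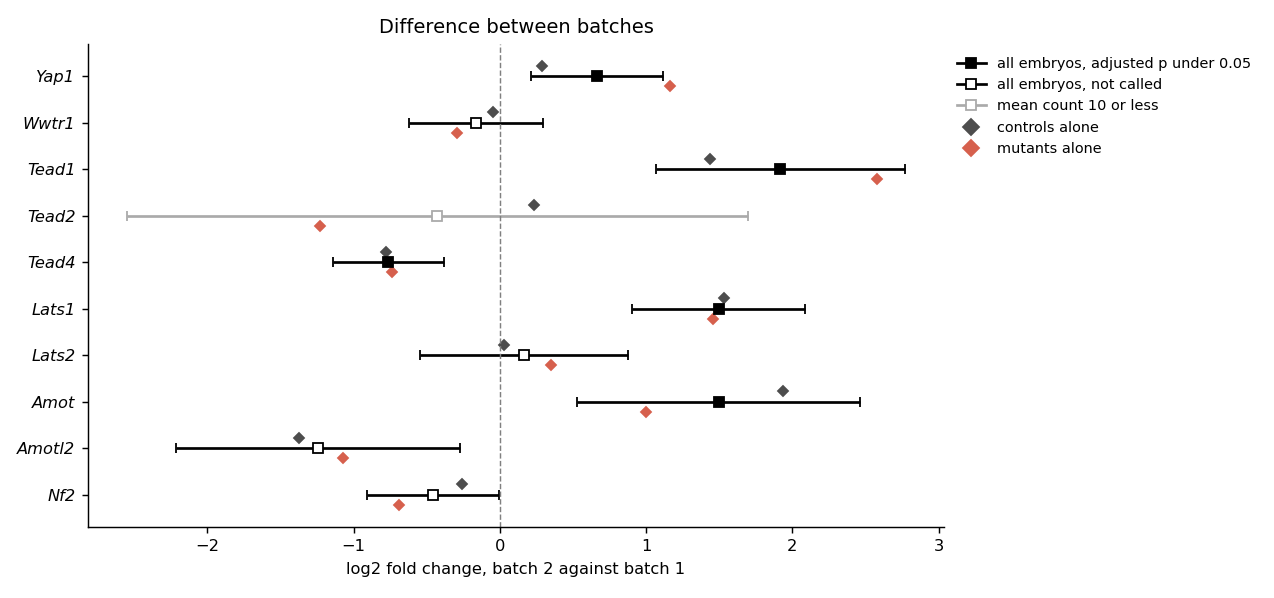
Log2 fold change of each gene between batch 2 and batch 1 with its 95% interval (squares, all 11 embryos; filled where called), and the same from the 6 controls alone (grey diamonds) and the 5 mutants alone (red diamonds). *Tead1* (1.92), *Lats1* (1.5), *Amot* (1.5) and *Yap1* (0.66) lie to the right and *Tead4* (-0.76) to the left.

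Effective length is the average length of the transcripts to which the authors' pipeline assigned a gene's reads, so it moves when reads shift between isoforms. It was tested by limma on log2(length + 1) over the 10489 genes whose normalised count averaged above 10. Of these 0.00% (0 genes) were called, and 0 of the 9 members were; 517 genes (4.93%) and 2 members, *Tead1* and *Amot*, had an unadjusted p under 0.05. Among the 7915 genes whose length varied, a fit added after seeing the data, 0 were called too.

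The effective length of *Tead1*, which has 15 annotated transcripts of 546 to 9964 bases, was 5166 to 9406 bases in the 6 controls and 3348 to 6477 in the 5 mutants. Its log2 difference was -0.64 ± 0.22 (SE; limma adjusted p = 0.965), with overlap between groups. In mutants 4 and 5 it was 3570 and 3348 bases, below every control, on 22 and 29 counts, while the 9406 bases of control 5 rested on 4 counts. *Amot* had 6290 to 6526 bases in all 6 controls, while mutants 1, 4 and 5 had 4502, 4644 and 4886 and mutants 2 and 3 had 6318 and 6521. Its log2 difference was -0.28 ± 0.10 (limma adjusted p = 1.00). The *Amot* lengths rested on 127, 11 and 99 counts in mutants 1, 4 and 5, and on 14 and 13 in controls 5 and 6. For *Amotl2* the difference was 0.52 ± 0.25 (limma adjusted p = 1.00), with 1117 to 3260 bases in controls and 2825 to 3709 in mutants. The 1117 bases, in control 5, rested on 5 counts. Between batches, described without a test, the length of *Nf2* was 2709 ± 197 bases (SD, n = 5) in batch 1 and 3568 ± 288 (SD, n = 6) in batch 2, and that of *Lats2* was 2636 ± 379 and 3667 ± 436. *Lats1* and *Wwtr1* had near constant lengths, with SDs of 0.0417 and 7.46 bases among the 6 controls.

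**Figure D5:**
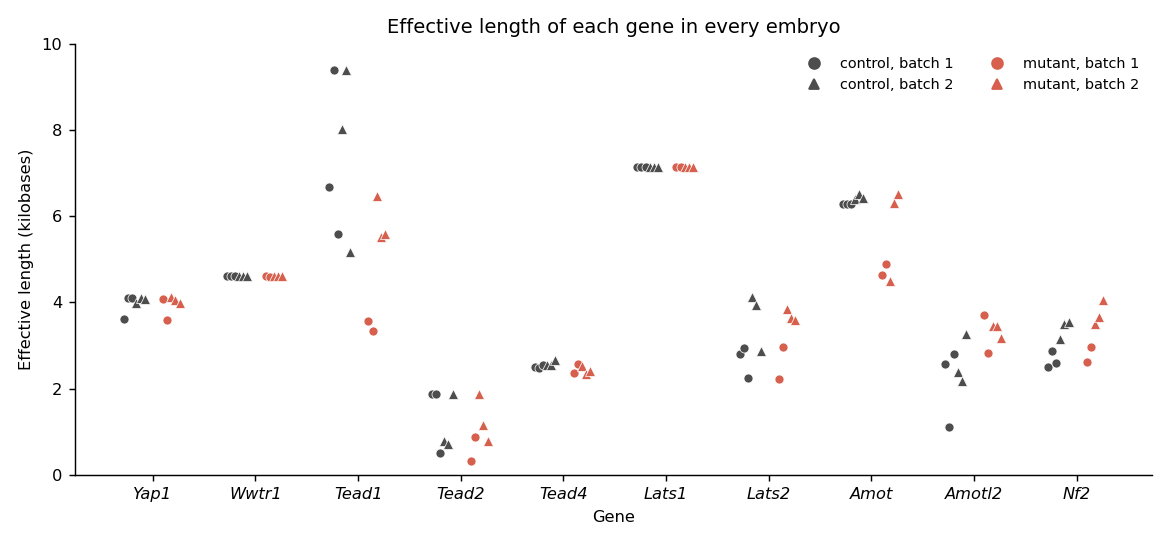
Effective length of each gene in kilobases in every embryo, with circles for batch 1, triangles for batch 2, grey for controls and red for mutants. *Amot* sits at 6290 bases or above in the 6 controls and at 4886 bases or below in 3 of the 5 mutants, and *Tead1* spreads most.

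To place the 10 genes among other pathway members, 32 further Hippo genes were listed by name: kinase partners, upstream and junction proteins, the STRIPAK phosphatase, which opposes the kinase MST, and nuclear cofactors. Of these, 24 were tested and 0 were called, where 1.45% of all genes were. At an unadjusted p under 0.05 there were 5 of the 24, against 11.9% of all genes. edgeR and limma called 0 as well, with 5 and 4 at an unadjusted p under 0.05, against 9.49% and 9.50%. Their median log2 fold change was 0.01, with 12 above and 12 below 0. The 3 with the highest levels were *Mob4*, a STRIPAK subunit, at 149 TPM, *Ppp2r1a*, the scaffold of the phosphatase PP2A, at 119.8, and *Mob1a*, a cofactor of LATS, at 68.9. None of these passed the test, with log2 fold changes of -0.29, 0.18 and 0.07.

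The smallest p-values in this list were those of *Stk4*, *Vgll4* and *Wwc2*. *Stk4*, which encodes the kinase MST1, gave 0.57 ± 0.19 (SE; DESeq2 adjusted p = 0.106), with 18.5, 28.0 and 22.9 TPM in batch 1 controls and 31.5 and 28.2 in batch 1 mutants. In batch 2 it had 37.2, 46.7 and 39.0 TPM in controls and 39.8, 47.6 and 52.5 in mutants, so the groups separated in batch 1 and overlapped in batch 2. *Vgll4*, which encodes a cofactor that competes with YAP for TEAD, gave 0.82 ± 0.35 (adjusted p = 0.291), with 5.97 to 17.3 TPM in controls and 14.0 to 27.4 in mutants. *Wwc2*, which encodes a relative of KIBRA that activates LATS, gave 0.42 ± 0.18 (adjusted p = 0.299). Between batches 8 of the 24 were called higher and 3 lower in batch 2, against 13.8% and 14.0% of all tested genes, and *Stk4* was among the higher (0.99 ± 0.19, adjusted p = 6.19e-06). *Fat4*, *Dchs1*, *Vgll1*, *Vgll2* and *Vgll3* had a count of 0 in all 11 libraries.

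Of 25 YAP/TEAD target genes named from general knowledge, which include *Amotl2* and *Lats2*, 8 were tested and 0 were called, where 1.45% of all genes were. At an unadjusted p under 0.05 there were 2 of the 8, against 11.9% of all genes. Their median log2 fold change was 0.39, with 7 of the 8 above 0, as were 5207 of all 10448 genes tested. Without those 2 members, 6 of 23 were tested, 0 were called and 5 of the 6 values were above 0. At an unadjusted p under 0.05 there was 1 of the 6 with DESeq2, against 11.9% of all genes. edgeR and limma called 0, with 0 under that p, against 9.49% and 9.50% of all genes. Most of this list was therefore too low to test in 8-cell embryos.

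*Ccn1* and *Ccn2* encode secreted matrix proteins and are standard readouts of YAP activity. *Ccn1* stood at 31.0, 33.4 and 27.6 TPM in batch 1 controls and 18.9 and 32.8 in mutants, but at 2.66, 1.84 and 1.13 in batch 2 controls and 6.85, 1.88 and 2.6 in mutants. The batches did not overlap (log2 fold change -3.24 ± 0.38, DESeq2 adjusted p = 3.28e-15), and mutants against controls gave 0.40 ± 0.38 (adjusted p = 0.756). *Ccn2* was near the detection limit, with 0 to 2.67 TPM and a mean normalised count of 10.1. All 3 batch 2 controls and mutant 2 were at 0, and mutants 1 and 3 at 1.52 and 1.09. In batch 1 the groups overlapped, with 2.67, 0.4 and 1.36 TPM in controls and 2.34 and 1.42 in mutants. For mutants against controls the DESeq2 test over all genes gave an unadjusted p of 0.0104 and an adjusted p of 0.217. Between batches the log2 fold change of *Ccn2* was -3.57 ± 1.17 (DESeq2 adjusted p = 0.0146). *Cdx2* (0 to 1.3 TPM) and *Sox2* (0 to 1.85), lineage genes regulated through Hippo signaling later on, fell under the count threshold, and *Gata3*, another trophectoderm gene, gave 0.05 ± 0.50 (adjusted p = 0.988).

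Genes with a pattern most like that of *Tead4* were *Pdxk*, *Smap1* and *Pld3* (Pearson r of batch-centred log2(TPM + 1) over 11 embryos of 0.95, 0.93 and 0.93), out of the 5536 genes whose normalised count averaged above 100. For *Amotl2* they were *Olfr1459*, *Macf1* and *Crtap*, with r of 0.90, 0.89 and 0.89. The values share libraries and their depth, the genes are the highest of a large number, and the correlations are given as a description.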

How the data were processed

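Embryos were grouped as control or mutant, and by batch, from the labels. Per the submitters' processing notes, the authors aligned reads with STAR (version 2.6.0c) to GRCm38.p6 and ran RSEM. For every embryo the deposited values are an expected count per gene, which need not be whole, a TPM and an effective length. A further table of the authors' own comparison, with fold changes and p-values, was not used. Symbols and coordinates were taken from GENCODE vM21 of the same build, which matched 54079 of 54146 gene identifiers.

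Expected counts were rounded. Group was tested beside batch by the Wald test of DESeq2 (version 1.42.0), the tool named in the study's methods, in R (version 4.3.3), with unshrunken log2 fold changes, intervals of 95% from the SE, and Benjamini-Hochberg adjustment over all genes. A batch by group interaction was fitted likewise. Alternatives were edgeR (version 4.0.16), limma (version 3.58.1) on log2(TPM + 1) or log2(TPM + 0.1), a length offset, TMM factors, fits without Cook's filter, other count filters, single batches, a fit that drops the batch term, *Xist* and Y-linked covariates, and each embryo left out. The fits within controls and within mutants, and the length fit on genes whose length varied, were added after seeing the data. Tests were checked on simulated data, where the DESeq2 calls held more unchanged genes than the threshold allows and the edgeR calls did not. Calls of both tools are therefore given for the members in the group, batch and interaction fits of all embryos. For expression, fits of a single batch or group, or with an embryo left out, used DESeq2 alone.

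The members and lists were chosen with earlier results of these data known. Beyond the 10 members, named genes were any called list gene and, per list, the 3 with the highest TPM and the 3 with the smallest p among those averaging over 10 normalised counts, and the 3 genes most correlated with each of 2 members; genes at 0, *Cdx2*, *Sox2*, *Gata3*, *Prdm10* and marker genes were named as well, after their values were seen. Replicate numbers follow accession order. Nothing says which embryos shared a mother, so p-values measure the spread between embryos. Libraries carried no molecular identifiers, so count limits cover counting error only.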

Additional observations from a re-analysis of the deposited data

Results flagged for a closer look

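*Wwtr1* in mutant 5 stood at 38.4 TPM, far above the other 4 mutants at 17.9 to 23.0, with a gap of 0.750 of the group's range. It is the only such value among 20 groups of values (10 genes in controls and in mutants). The groups pool both batches, and how often chance gives such a value was not tested. The interaction test of batch and group, by DESeq2 over all genes, passed the threshold for none of the 10 genes.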

How the results depend on the processing

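The count of members called in mutants against controls was 0 under every alternative except without control 4, where it was 1 (*Amotl2*), a range of 0 to 1 when embryos were left out. The number of all genes called, 151, was 35 with edgeR, 18 and 11 with limma on log2(TPM + 1) and log2(TPM + 0.1), 51 with no batch term, 72 in batch 1 alone, 45 in batch 2 alone, 257 with *Xist* and Y-linked covariates, and 90 to 264 with an embryo left out, the highest without control 2. *Wwtr1*, *Tead4*, *Lats1* and *Amotl2* kept their direction under all 24 alternatives tried.

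Directions turned for *Yap1*, *Tead1*, *Tead2*, *Lats2*, *Amot* and *Nf2*. *Yap1* gave 0.067 with no batch term and 0.29 in batch 2 alone, and -0.24 to 0.047 with an embryo left out. *Tead1* gave -0.52 in batch 1 alone and -0.033 to 0.44 with an embryo left out. *Lats2* gave -0.014 with the length offset, -0.14 in batch 1 alone and -0.17 to 0.31 with an embryo left out. *Nf2* gave 0.038 in batch 1 alone, *Amot* -0.069 to 0.93 and *Tead2* -1.45 to 0.14 with an embryo left out. Between batches, *Tead2* gave 0.23 in controls alone and -1.44 to 0.16 with an embryo left out, *Wwtr1* -0.31 to 0.062 and *Lats2* -0.10 to 0.43. The number of genes called between batches, 2911, was 1492 in controls alone and 1090 in mutants alone, and 2407 to 2913 with an embryo left out; members called were 3 in controls alone and 4 to 6 with an embryo left out. The interaction called 0 genes with edgeR and 0 to 22 with an embryo left out. On effective length 0 to 1 genes were called with an embryo left out, the 1 without control 6; *Yap1* ranged from -0.043 to 0.016 and *Lats2* from -0.085 to 0.080. Where not stated, the cause was not tested; fewer embryos enter the fits of a batch or a group. Shares of the leading paralogs kept their values with counts divided by mean length. No paired analysis was possible because replicate numbers follow accession order and the labels pair no embryos.

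With 5 mutants and 6 controls in 2 batches, the SEs of the tested members ran from 0.19 (*Tead4*) to 0.50 (*Amotl2*) on the log2 scale. *Tead2*, *Cdx2* and *Sox2*, with a mean normalised count under 10, were not assessed at this depth.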

Other observations

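Mutant 5 had the highest TPM of the 11 embryos for *Wwtr1* (38.4), *Tead4* (161), *Amot* (4.79) and *Amotl2* (18.2), and the lowest for *Lats1* (1.49). Without mutant 5 the mutant against control log2 fold changes of these genes were 0.14, 0.29, -0.07, 1.37 and -0.14, against 0.37, 0.39, 0.70, 1.36 and -0.30 with all embryos. This embryo was singled out after its values were seen, and no test was made of it.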
